A study of Mus musculus with 20 samples.

Results

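The genes described here are the nuclear genes of oxidative phosphorylation, taken by name: every row of the authors' deposited expression table whose symbol starts with Nduf, Uqcr, Atp5 or Cox followed by 4 to 8, with Sdha, Sdhb, Sdhc, Sdhd, Cyc1 and Cycs. The rule found 77 transcript models, for 74 symbols, of the 11767 models in that table and the 55419 counted, and did not use any measured level. Of the 74 symbols, 73 passed the filter on low counts and were tested, 58 of them with a mean level of at least 3 log2 CPM. Ndufv2, a core subunit of complex I, was left out by the filter, at 0.579 to 1.22 CPM in the 10 libraries. No tested member reached the filter's cutoff in libraries of a single group only. Ndufa4l2 reached it only in the iPS libraries and in a library of iPS cells in 2i, so it passed through the group where it is high.

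Oxidative phosphorylation is the process by which the inner mitochondrial membrane turns the energy of nutrients into ATP. Electrons enter at complex I (NADH dehydrogenase) or complex II (succinate dehydrogenase), pass through complex III and the small carrier cytochrome c to complex IV (cytochrome c oxidase), and the resulting proton gradient drives complex V (ATP synthase). Most subunits are encoded in the nucleus and a few core subunits in mitochondrial DNA. Pluripotent stem cells are known to rely strongly on glycolysis, and the balance with respiration is known to shift on differentiation and reprogramming.

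The RNA of 5 kinds of mouse cells was sequenced, with 2 libraries each. ES cells were the male V6.5 line, of the cross 129SvJae x C57BL/6, in a medium with leukemia inhibitory factor (LIF). The second group was the same line in 2i medium, which has no serum and holds LIF with CHIR99021 and PD0325901, inhibitors of the kinases GSK3 and MEK. Neural progenitor cells (NPC) came from whole brains of 129SvJae x C57BL/6 mice at postnatal day 1 that carried a Sox2-eGFP reporter, and were grown as neurospheres and then plated. Induced pluripotent stem (iPS) cells were made from such NPC and grown in medium with serum and LIF, or in 2i. ES and iPS cells were expanded on feeder fibroblasts and moved to gelatin to remove them. The NPC and iPS cells carry the reporter and the V6.5 line is not labelled with it, and the labels do not give how many iPS clones or animals were used. Nothing in the labels says whether the 2 libraries of a group came from separate cultures or animals, and the p-values below reflect only how far such libraries differ, which may be technical.

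Counts assigned to a transcript model ranged from 1150624 in NPC replicate 1 to 17286063 in ES replicate 1, and reads in no model from 26.5% in ES replicate 1 to 86.6% in NPC replicate 1 and 81.5% in ES replicate 2. Levels are given as CPM, counts scaled to the depth of each library with TMM factors. Changes are log2 differences ± SE from edgeR's quasi-likelihood test, with p-values adjusted by the Benjamini-Hochberg method over all 11031 models tested, and a gene is said to rise or fall where the adjusted p was at most 0.05. Pluripotency markers summed to 7961 and 7696 CPM in ES cells, 5761 and 5966 CPM in ES cells in 2i, 7250 and 6310 CPM in iPS cells, 7370.1 and 7370.1 CPM in iPS cells in 2i, and to 261 and 257 CPM in NPC, where Sox2 made up 251 and 247 CPM and Pou5f1 had no count. Neural progenitor markers summed to 7428 and 8937 CPM in NPC, with Olig1 at 3684 and 4506 CPM, and to 33.4 to 82.2 CPM elsewhere, while Nes, a classical progenitor marker, stood at 3.35 and 4.06 CPM in NPC on its model. Reads that overlapped several models, 6.00% to 35.6%, were not assigned, and the treatment of reads that match processed pseudogenes is not stated in the labels, so a level is that of a transcript model and is uncertain where a near copy exists. Depth and these shares differ between libraries of a group and between groups, and their part in the results was not tested beyond the left-out libraries given below.

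Some of the members share motifs in their promoters. Promoters, 250 bases before to 50 after the annotated start, were found in RefSeq (GRCm38.p6) for 64 of the 74 symbols, and were searched on both strands for the letters of binding motifs of 4 regulators of respiratory genes. The palindromic motif of NRF1, a factor that activates nuclear respiratory genes, was in 16 of the 64 promoters (25%) and in 4.60% of all 32851 promoters in the table. CCGGAAG, the core bound by ETS factors such as GABPA, was in 14 (21.9%, against 8.86% of all). AAGATGGC, bound by YY1, was in 9 (14.1%, against 2.75%), and TCAAGGTCA, bound by the estrogen-related receptors, in 2 (3.13%, against 0.423%). The comparison took all 32851 promoters, which were not matched to the members in expression or base composition. Matches of CCGGAAG and AAGATGGC can overlap in the letters AAG, and a match is a description of the letters, not of binding. Below, the 250 bases before the start are printed for 6 members described in the results that hold a match there, with the matched letters in capitals. They are Sdha (chr13:74350241-74350490), Atp5h (chr11:115419920-115420169), Sdhd (chr9:50603850-50604099), Cox6a1 (chr5:115348959-115349208) and the paralogs Atp5g2 (chr15:102671048-102671297) and Atp5g3 (chr2:73911327-73911576), all on the minus strand and written 5′ to 3′ along the gene.
Sdha: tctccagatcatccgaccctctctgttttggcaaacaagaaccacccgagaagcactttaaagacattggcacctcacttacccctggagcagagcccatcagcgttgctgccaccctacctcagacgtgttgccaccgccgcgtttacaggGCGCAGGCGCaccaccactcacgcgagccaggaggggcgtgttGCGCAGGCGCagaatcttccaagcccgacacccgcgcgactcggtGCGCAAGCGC
Atp5h: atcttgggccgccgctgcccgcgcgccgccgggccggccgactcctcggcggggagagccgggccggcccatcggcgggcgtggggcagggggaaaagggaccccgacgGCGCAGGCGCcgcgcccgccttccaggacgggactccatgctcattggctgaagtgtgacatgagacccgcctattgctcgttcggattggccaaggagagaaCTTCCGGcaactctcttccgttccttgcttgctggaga
Sdhd: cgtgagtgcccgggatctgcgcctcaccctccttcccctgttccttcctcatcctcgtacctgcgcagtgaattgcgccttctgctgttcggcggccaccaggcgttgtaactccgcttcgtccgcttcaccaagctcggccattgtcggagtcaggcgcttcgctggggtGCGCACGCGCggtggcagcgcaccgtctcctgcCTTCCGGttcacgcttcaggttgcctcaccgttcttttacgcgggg
Cox6a1: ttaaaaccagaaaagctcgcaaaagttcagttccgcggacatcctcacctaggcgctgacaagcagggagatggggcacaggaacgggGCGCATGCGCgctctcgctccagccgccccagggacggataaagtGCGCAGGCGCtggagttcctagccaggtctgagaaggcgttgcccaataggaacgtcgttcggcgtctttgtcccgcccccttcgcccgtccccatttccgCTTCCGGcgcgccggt
Atp5g2: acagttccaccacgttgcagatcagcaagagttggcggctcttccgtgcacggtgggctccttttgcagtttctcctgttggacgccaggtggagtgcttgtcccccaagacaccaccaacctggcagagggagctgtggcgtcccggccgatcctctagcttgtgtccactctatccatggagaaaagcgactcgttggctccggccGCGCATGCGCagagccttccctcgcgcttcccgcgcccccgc
Atp5g3: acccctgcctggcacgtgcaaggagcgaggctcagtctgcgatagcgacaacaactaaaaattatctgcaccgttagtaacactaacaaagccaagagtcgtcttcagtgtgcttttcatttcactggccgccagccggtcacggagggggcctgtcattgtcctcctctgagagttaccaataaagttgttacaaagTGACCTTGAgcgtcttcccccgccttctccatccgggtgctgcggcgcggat
Sdha held 3 NRF1 matches, 98, 55 and 10 bases before the start. Cox6a1 held 2 NRF1 matches and 1 ETS match, and Atp5h and Sdhd 1 of each before the start. The printed promoters were chosen because they hold matches: 29 of the 64 held none of the 4 motifs, among them Cox7b, Ndufa4 and Ndufc2, and Ndufs4 and Ndufs7 held the YY1 letters alone. Atp5g2 and Atp5g3, which encode the same ATP synthase subunit, each held 1 NRF1 match, that of Atp5g3 after the start and outside the printed bases. The 2 members with the receptor letters were Atp5g3, before the start, and Sdhd, after it. The NRF1 motif was in 5 of 15 members with a promoter that were higher in iPS than in ES cells, in 4 of 17 that were lower and in 7 of 31 that were neither.

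Summed over all members, the genes took a similar share of the counts in every library. The share was 2.14% and 2.098% in ES cells, 1.88% and 2.104% in ES cells in 2i, 2.17% and 2.24% in NPC, 1.95% and 1.99% in iPS cells, and 2.30% and 2.29% in iPS cells in 2i. By this share the iPS libraries were below both ES libraries, and the iPS libraries in 2i were the highest of the 10. On the TMM scale used for all other levels the order is another: the members summed to 20734 and 20605 CPM in ES cells and to 21851 and 20904 CPM in iPS cells, so both iPS libraries were above both ES libraries, and NPC replicate 2, at 23604 CPM, was the highest. The direction of the summed difference between iPS and ES cells thus flips with the scaling. With 2 libraries a group, the smallest p an exact permutation test allows is 0.333, so these shares are given without a test. By complex, sums were taken only over members with a mean of at least 3 log2 CPM. The 3 such core subunits of complex I summed to 621 and 690 CPM in ES cells. They summed to 843 and 1006 CPM in NPC and to 1137 and 999.03 CPM in iPS cells. The 10 such members of complex IV summed to 4181 and 4182 CPM in ES cells and to 3489 and 3408 CPM in iPS cells. In iPS cells in 2i they summed to 4176 and 3854 CPM. The 8 such members of complex V were at 8687 and 8566 CPM in ES cells and 9235 and 8766 CPM in iPS cells. A single gene of complex V, Atp5b, made up a large part of these sums and of the share of all members. Without it that share was 1.52% and 1.49% in ES cells and 1.37% and 1.41% in iPS cells. Within this narrow range single members differed between groups by more than 1 unit on the log2 scale, as the colour plot of levels by library shows.

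**Figure D1:**
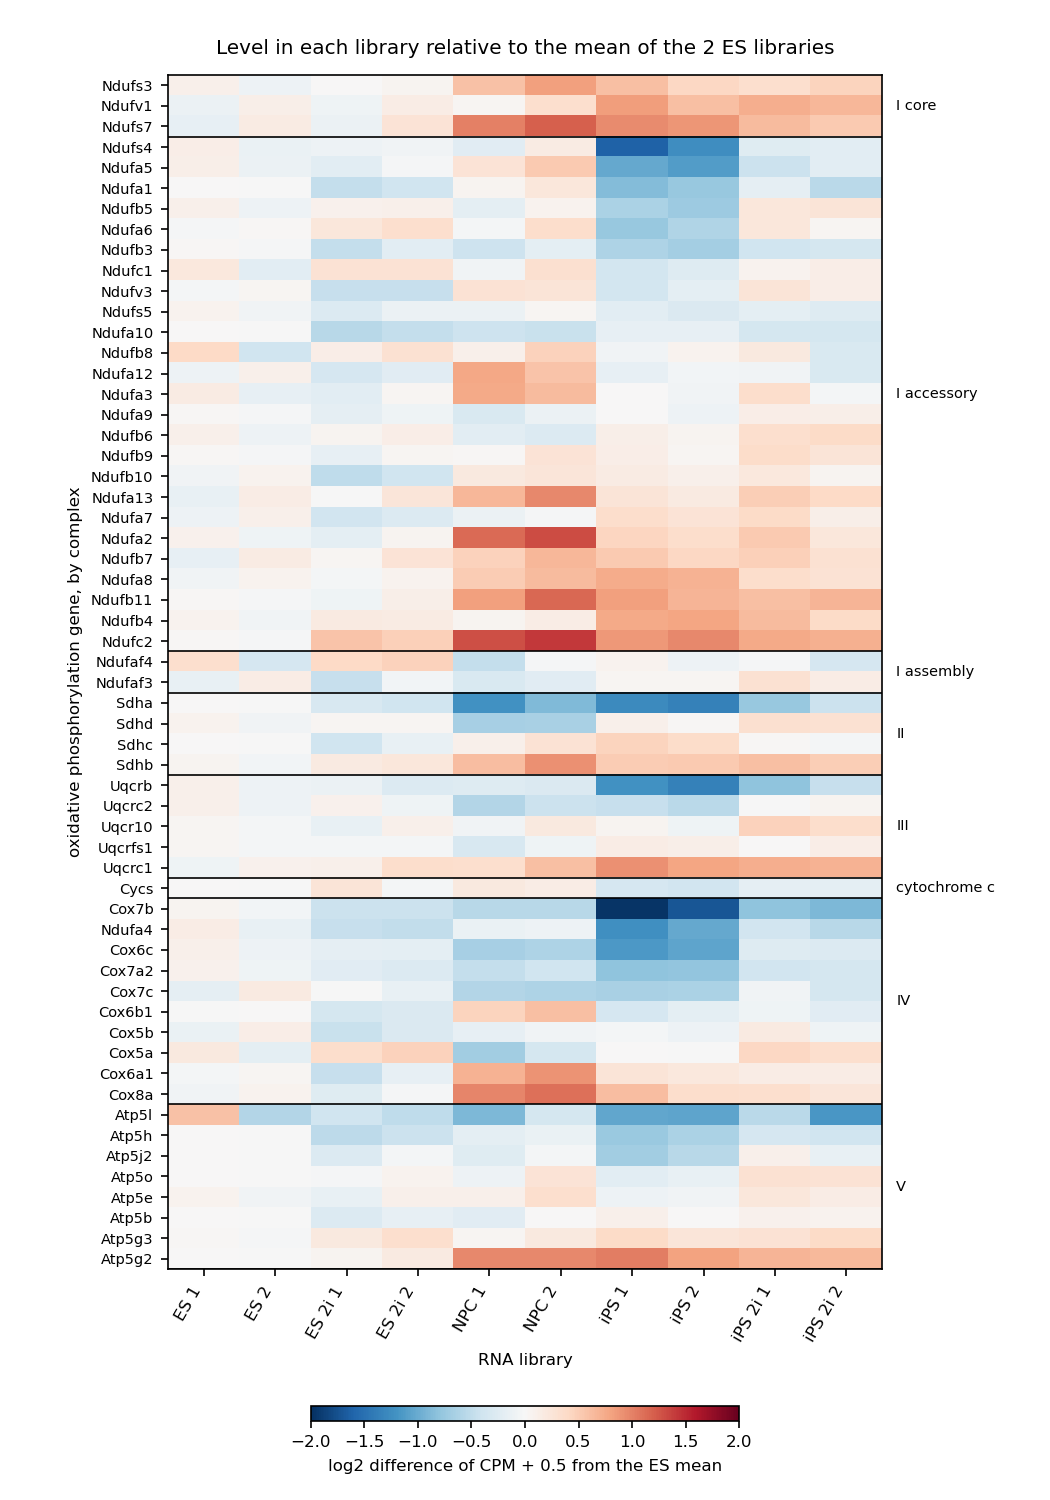
Levels of the 58 members with a mean of at least 3 log2 CPM (rows, by complex) in the 10 RNA libraries (columns), as the log2 difference of CPM + 0.5 from the mean of the 2 ES libraries. The 2 iPS libraries stand out with a block of low members, among them Cox7b, Ndufs4, Sdha and Uqcrb, next to high members such as Ndufs7 and Atp5g2.

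The first comparison asked how the genes differ between primary NPC and ES cells. In NPC, 18 of 73 members rose and 12 fell. Of all models tested, 27.3% rose and 33.7% fell, 61.0% in either direction. The members' median change was 0.13 and that of all models −0.20. With at least 3 log2 CPM, 46.6% of members and 75.0% of all models were called, and 29.3% and 30.4% rose. Complex I, which holds 31 of the 73 members, had 11 of the 18 rises and 1 fall. This is 35.5% of its subunits up, not far from the shares of all models, and 3.23% down. Complex IV went both ways, with 3 of 13 up and 6 down.

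Ndufc2, an accessory subunit of complex I, was at 136 and 130 CPM in ES cells and at 325 and 353 CPM in NPC. Ndufa2, another accessory subunit, was at 89.9 and 79.5 CPM in ES cells and at 186 and 210 CPM in NPC. Ndufs7, a core subunit that holds an iron-sulfur cluster, was at 91.0 and 115 CPM against 206 and 235 CPM. For these 3 genes both NPC libraries lay above both ES libraries, with no overlap. The changes were 1.35 ± 0.13 for Ndufc2 (adjusted p = 1.13e-10), 1.22 ± 0.14 for Ndufa2 (1.19e-08) and 1.12 ± 0.15 for Ndufs7 (1.10e-07). Ndufs3, also core, rose by 0.71 ± 0.13, and Ndufv1, the core subunit that binds NADH, differed by 0.20 ± 0.14, short of the threshold (adjusted p = 0.232). The core subunit Ndufs1 was measured at 1.24 to 3.74 CPM over the libraries, on a model with few counts. Ndufa10 was the complex I subunit that fell, from 542 and 535 to 403 and 397 CPM.

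The 4 subunits of complex II, which also works in the tricarboxylic acid cycle, did not move together. Sdha, the flavoprotein that oxidizes succinate, fell from 391 and 389 CPM in ES cells to 169 and 211 CPM in NPC (−1.02 ± 0.14, adjusted p = 2.07e-07). Sdhd, a membrane anchor, fell from 442 and 404 to 265 and 270 CPM (−0.66 ± 0.13). Sdhb, the iron-sulfur subunit, rose from 299 and 277 to 441 and 546 CPM (0.78 ± 0.13). Sdhc, the other anchor, was at 287 and 286 CPM against 306 and 351 CPM (0.21 ± 0.13, adjusted p = 0.176). Within 1 complex, Sdha was at 0.493 and Sdhb at 1.72 times the level in ES cells.

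In complex IV, Cox8a rose from 475 and 519 to 974 and 1069 CPM (1.04 ± 0.13), Cox6a1 by 0.80 ± 0.13 and Cox6b1 by 0.53 ± 0.13. Cox6c fell by 0.64 ± 0.13, Cox7c by 0.61 ± 0.14 and Cox7b by 0.56 ± 0.14. All are small nuclear-encoded subunits around the catalytic core. In complex III, Uqcrc1 rose by 0.48 ± 0.13 and Uqcrc2, the other core protein, fell by 0.51 ± 0.13. In complex V, Atp5g2, a gene for the c subunit of the rotating ring, rose from 494 and 490 to 954 and 961 CPM (0.96 ± 0.13, adjusted p = 1.15e-07). Atp5b, the catalytic beta subunit, was at 6025 and 5988 CPM in ES cells and 5143 and 6057 CPM in NPC, and its groups overlapped.

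The balance of rises and falls in NPC changed with single libraries. Without ES replicate 2 the call was 15 up and 24 down, and the members' median ran from −0.15 (without NPC replicate 2) to 0.17 (without NPC replicate 1). The called members named above other than Uqcrc1, whose adjusted p reached 0.160, kept their direction and their call in all 22 alternative settings.

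**Figure D2:**
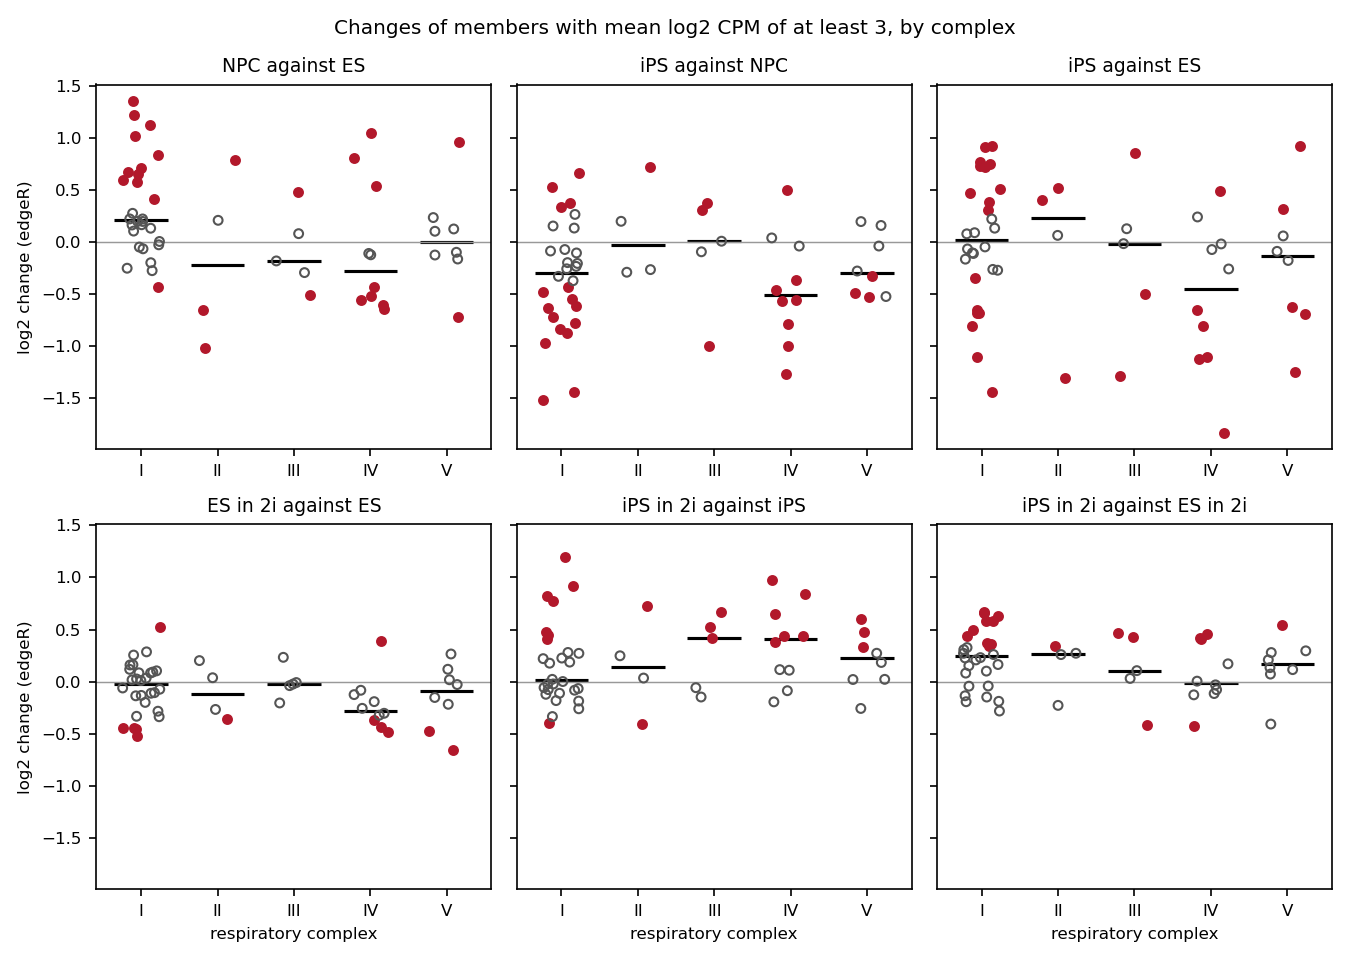
Change of each member with a mean of at least 3 log2 CPM (points; filled where adjusted p was at most 0.05) by respiratory complex, in 6 comparisons, with the median of each complex as a line; assembly factors and Cycs are not drawn. In the panel of iPS against ES cells, each of the 5 complexes holds called members on both sides of 0, from −1.83 (Cox7b) to 0.92 (Ndufs7).

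The next comparison asked how iPS cells differ from the NPC they were made from. It shares the NPC libraries with the first comparison, so its values are given for themselves. In iPS cells 11 of 73 members rose and 25 fell. Among all models tested 51.3% changed, 29.3% up and 22.0% down. The median was −0.24 for members and 0.15 for all models. With scaling to total counts alone the call was 7 up and 31 down. Without iPS replicate 1 it was 7 up and 16 down.

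Complex I held 13 of the falls, all in accessory subunits. Ndufa5 fell from 62.0 and 73.3 CPM in NPC to 24.7 and 23.2 CPM in iPS cells (−1.52 ± 0.18, adjusted p = 1.63e-08). Ndufs4, whose loss causes complex I deficiency, fell from 62.8 and 82.6 to 23.5 and 30.8 CPM (−1.44 ± 0.18). In complex IV, Cox7b fell from 132 and 132 to 49.7 and 59.4 CPM (−1.27 ± 0.14), and Ndufa4, a protein first assigned to complex I and now counted in complex IV, from 323 and 331 to 152 and 174 CPM (adjusted p = 2.31e-07). For each of these 4 genes the groups were apart. Cycs, somatic cytochrome c, fell from 327 and 316 to 224 and 217 CPM (−0.54 ± 0.13). Of the rises, Sdhd was the largest among well measured members, from 265 and 270 to 453 and 431 CPM (0.72 ± 0.13). Of subunits that were high in NPC, Ndufa2 fell by 0.84 ± 0.14, Cox8a by 0.55 ± 0.13 (adjusted p = 0.0776 without iPS replicate 2) and Ndufc2 by 0.44 ± 0.13. Atp5g2, at 1002 and 860 CPM, had a difference of −0.04 ± 0.13, and Ndufs7 of −0.20 ± 0.14, with adjusted p of 0.812 and 0.262.

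The comparison of iPS with ES cells asked where reprogrammed cells stand relative to the reference pluripotent line. In iPS cells 18 of 73 members rose and 20 fell. Of all models tested, 25.9% rose and 26.9% fell, 52.9% in either direction. The member count is near these shares, and the medians were −0.05 for members and −0.03 for all models. At a level of at least 3 log2 CPM, 60.3% of members and 71.0% of all models were called. With total-count scaling, which moved the median of all models to −0.18, the call was 14 up and 25 down. It shares its libraries with both comparisons above. Among members with at least 3 log2 CPM, the largest changes were falls of Cox7b, Ndufs4, Sdha and Uqcrb.

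Cox7b (chrX:103211038-103217789, mm9), a complex IV subunit required for its assembly, was at 203 and 187 CPM in ES cells and at 49.7 and 59.4 CPM in iPS cells. Its level was 0.281 of that in ES cells (−1.83 ± 0.14, adjusted p = 1.23e-12). Ndufs4 (chr13:115078002-115178302, mm9) was at 80.9 and 66.6 CPM in ES cells and 23.5 and 30.8 CPM in iPS cells (−1.44 ± 0.16, adjusted p = 9.67e-09). Both genes were lower in each iPS library than in any of the 8 other libraries. The same was true of Uqcrb, a small subunit of complex III, at 49.5 and 44.8 CPM against 123 and 107 CPM in ES cells (−1.29 ± 0.15). Sdha (chr13:74459702-74487688, mm9) was at 161 and 153 CPM against 391 and 389 CPM (−1.31 ± 0.14, adjusted p = 1.74e-09). For Sdha the NPC libraries, at 169 and 211 CPM, were nearly as low. Ndufa4 fell by 1.13 ± 0.13, Cox6c by 1.11 ± 0.13, Ndufa5 by 1.11 ± 0.17 and Cox7a2 by 0.80 ± 0.12. Atp5l, a membrane subunit of ATP synthase, fell by 1.25 ± 0.25, but its ES libraries were far apart, at 52.4 and 22.9 CPM, and without ES replicate 1 its adjusted p was 0.188.

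The rises of members with at least 3 log2 CPM reached 0.92. Ndufs7 was at 198 and 188 CPM in iPS cells against 91.0 and 115 CPM in ES cells (0.92 ± 0.14, adjusted p = 2.71e-06). Atp5g2 (chr15:102493298-102501478, mm9) was at 1002 and 860 CPM against 494 and 490 CPM (0.92 ± 0.13, adjusted p = 3.25e-07). Ndufc2 rose by 0.91 ± 0.12 and Uqcrc1 (chr9:108838660-108851686, mm9), a core protein of complex III, by 0.85 ± 0.13, from 673 and 758 to 1339 and 1240 CPM. In each of these genes both iPS libraries lay above both ES libraries. All 3 core subunits of complex I with a level above 3 log2 CPM rose, with Ndufv1 at 0.72 ± 0.14 and Ndufs3 at 0.50 ± 0.13, and none of the 4 tested fell. In complex II, Sdhb rose by 0.51 ± 0.13 and Sdhc by 0.40 ± 0.13, Sdhd was at 453 and 431 CPM against 442 and 404 CPM, and Sdha fell. The rise of Sdhc was lost in 6 of the 22 settings (adjusted p up to 0.156), among them without ES replicate 1, ES replicate 2 or iPS replicate 1, that of Sdhb without ES replicate 2 (0.0653) and that of Ndufs3 without ES replicate 2 or iPS replicate 1 (up to 0.133). The fall of Sdha and the falls of Cox7b, Ndufs4, Uqcrb, Ndufa4 and Ndufa5 held under every one of the 22 alternative settings, as did the rises of Ndufs7, Atp5g2, Ndufc2, Uqcrc1 and Ndufv1.

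**Figure D3:**
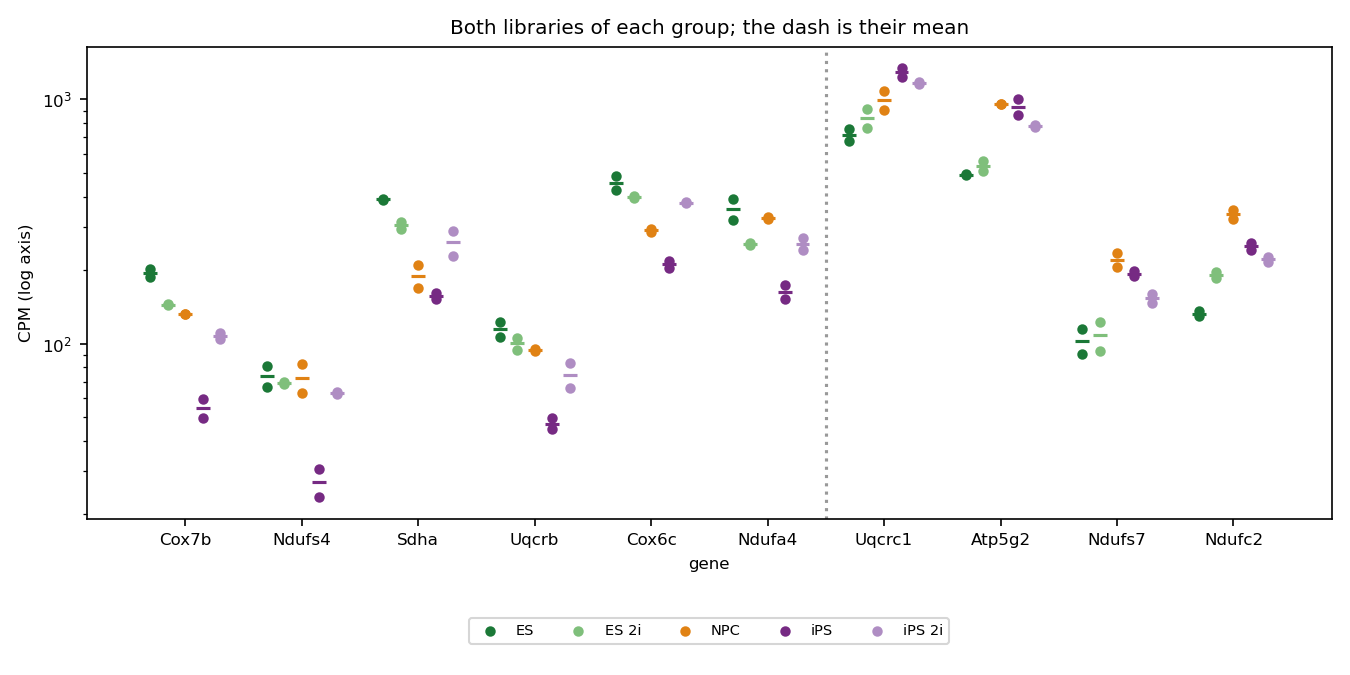
CPM on a log axis of 6 members that were lower and 4 that were higher in iPS than in ES cells, chosen after their values were seen, in both libraries of each group (points; dashes are means). To the left of the dotted line the iPS points are the lowest of each gene and the points of iPS cells in 2i lie above them; to the right both NPC and iPS points lie above the ES points.

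Markers of other cells moved with these groups. The 7 measured of 10 feeder fibroblast markers summed to 2752 and 2954 CPM in iPS cells, 1211 and 1400 CPM in ES cells, 912 and 924 CPM in iPS cells in 2i, 442 and 451 CPM in ES cells in 2i, and 77.0 and 107 CPM in NPC. None of these 7 was at 0 in a pluripotent library, and Acta2, at 1556 and 1679 CPM in iPS cells, made up most of the sum there. Of 5 neuron markers 2 were measured, and summed to 1310 and 1094 CPM in iPS cells against 358 and 411 CPM in ES cells. Of 9 pluripotency markers tested, 7 were lower in iPS than in ES cells (median −0.79). Among these 7, Esrrb was lower by 2.91, Sox2 by 2.20 and Tdh by 1.76. Pou5f1 and Klf4 were higher by 1.58 and 1.84. In iPS cells in 2i 6 of the 9 rose and 2 fell (median 0.97), and the response to 2i was higher in iPS than in ES cells for 6 and lower for 2. The part of these fibroblast, neuron and pluripotency markers in the changes of the members was not tested. In RNA of whole cultures, fewer cells of a type and less RNA per cell cannot be told apart.

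The 2i medium was compared with the first medium in each line. In ES cells 3 of 73 members rose in 2i and 11 fell. The shares over all models were 11.3% up and 13.2% down, 24.5% together, and the median was −0.06 for members and 0.00 for all models. The changes were small. Ndufa10 fell from 542 and 535 to 365 and 387 CPM (−0.52 ± 0.12, adjusted p = 0.00158), Ndufa4 from 392 and 321 to 258 and 253 CPM (−0.48 ± 0.13) and Atp5h, a peripheral stalk subunit of ATP synthase, from 498 and 489 to 343 and 365 CPM (−0.48 ± 0.12). Ndufc2 rose from 136 and 130 to 197 and 186 CPM (0.52 ± 0.12). Sdha had a change of −0.36 (adjusted p = 0.0471), a call lost in 15 of the 22 alternative settings. The call of Ndufa4 was lost in 2 of the 22 alternative settings, one of them without ES replicate 1. Upper-quartile scaling gave 5 up and 7 down, and leaving out ES replicate 1 gave 4 up and 5 down, ES replicate 2 gave 2 and 7, ES in 2i replicate 1 gave 5 and 3 and ES in 2i replicate 2 gave 1 and 6.

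In iPS cells 22 of 73 members rose in 2i and 3 fell; this comparison shares the iPS libraries with that of iPS against ES cells. Over all models 42.6% changed, 21.1% up and 21.5% down, and the median was 0.18 for members and 0.03 for all models. Among those with at least 3 log2 CPM, 37.9% of members and 57.4% of all models were called. Of these members 34.5% rose and 3.45% fell, and of these models 27.6% and 29.8%. Complex IV had 7 of 13 members up, complex III 4 of 8, and complex I 7 of 31 with 1 down. Ndufs4 rose from 23.5 and 30.8 to 62.3 and 63.6 CPM (1.20 ± 0.16, adjusted p = 5.46e-07), Cox7b from 49.7 and 59.4 to 111 and 105 CPM (0.97 ± 0.14) and Ndufb5 from 128 and 120 to 231 and 238 CPM (0.92 ± 0.13). In each, both libraries in 2i lay above both libraries in serum. Cox6c rose by 0.84 ± 0.12, Ndufa6 by 0.82 ± 0.14, Sdha by 0.73 ± 0.14 and Uqcrb by 0.67 ± 0.15. Of the falls, Sdhc went from 389 and 369 to 291 and 279 CPM (−0.41 ± 0.13), a call lost in 4 of the 22 settings, among them without iPS replicate 1 and without either library in 2i. The count was 13 up and 1 down without iPS replicate 1, and 14 up and 1 down without iPS in 2i replicate 1.

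The response to 2i was tested for a difference between the lines with an interaction term. The response of iPS cells was higher than that of ES cells in 19 of 73 members and lower in 1. Of all models tested, 15.1% were higher and 12.2% lower, 27.3% in all, and the median difference was 0.22 for members and 0.01 for all models. Cox7b had the clearest difference (1.41 ± 0.18, adjusted p = 8.08e-07): its change in 2i was −0.43 ± 0.13 in ES cells and 0.97 ± 0.14 in iPS cells, the former lost in 5 of the 22 settings, among them without ES replicate 1 or either ES library in 2i. Ndufs4 differed by 1.31 ± 0.22, with −0.11 in ES and 1.20 in iPS cells. Ndufa4, Sdha and Cox6c differed by 1.13 ± 0.18, 1.08 ± 0.19 and 1.03 ± 0.18, and these 5 genes were low in the iPS libraries of the first medium, which enter both comparisons and had the highest sums of fibroblast markers. Ndufc2 was the member with a lower response in iPS cells (−0.71 ± 0.17): it rose in ES cells, and its difference in iPS cells was −0.18 ± 0.12 (adjusted p = 0.244). Complex IV held 6 of the 19, among them Cox7c, Cox7a2 and Cox7a1. The number was 14 to 25 when single libraries were left out, with 13 or more of them higher in each case.

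Because iPS against ES cells and iPS against ES cells both in 2i share no library, the same genes can be followed from one to the other. In 2i, 21 of 73 members were higher in iPS cells and 3 lower. Over all models 25.3% differed, 13.7% higher and 11.6% lower, and the median was 0.20 for members and −0.01 for all models. At a level of at least 3 log2 CPM, 36.2% of members and 38.8% of all models differed. Of these members 31.0% were higher and 5.17% lower, and of these models 20.9% and 17.9%. Of the 18 members higher in iPS cells in the first medium, 13 were higher in 2i as well and 5 were not called. Of the 20 lower members, 2 (Cox7b and Uqcrb) were lower in 2i, none was higher and 18 were not called. Over all models, 1110 of 2862 higher and 942 of 2968 lower models were called the same way in 2i. Cox7b was at 111 and 105 CPM in iPS cells in 2i against 145 and 144 CPM in ES cells in 2i (−0.43 ± 0.13, adjusted p = 0.0131). Ndufa4 was at 271 and 242 CPM against 258 and 253 CPM, and Ndufs4 at 62.3 and 63.6 CPM against 68.7 and 69.9 CPM, and for Ndufa4 the groups overlapped. Ndufv1 (0.66 ± 0.14), Ndufb11 (0.63 ± 0.13), Atp5g2 (0.54 ± 0.13), Ndufs7 (0.49 ± 0.14) and Uqcrc1 (0.47 ± 0.13) were higher in iPS cells in 2i too. Ndufs7 and Uqcrc1 lost the call without ES in 2i replicate 1 or iPS in 2i replicate 1, and the lower level of Cox7b lost it without either iPS library in 2i. The count in 2i moved with single libraries: it was 6 up and 2 down without ES in 2i replicate 1, 5 up and 1 down without iPS in 2i replicate 1, and 12 up and 2 down without iPS in 2i replicate 2.

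**Figure D4:**
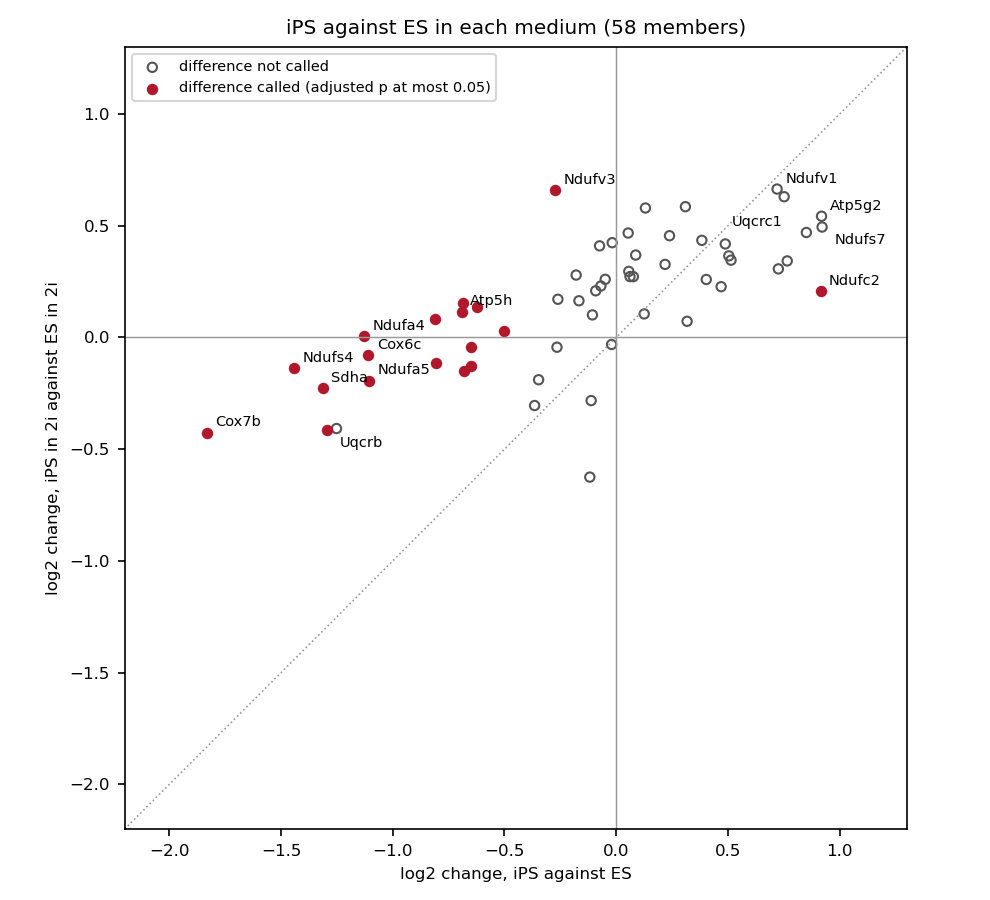
Log2 change of iPS against ES cells in the first medium (x axis) and in 2i (y axis) for the 58 members with a mean of at least 3 log2 CPM; filled points have a called difference between both changes (interaction term) and the dotted line marks equal changes. Ndufs4 and Ndufa4, at −1.44 and −1.13 on the x axis, lie at −0.14 and 0.00 on the y axis, while Ndufv1 and Atp5g2 lie at 0.66 and 0.54 on it.

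Several subunits exist in paralogous forms, and the share of each form was followed within a library, where depth does not matter. Atp5g3 made up 47.2% and 46.5% of the counts of Atp5g2 and Atp5g3 in ES cells and 49.4% and 49.4% in 2i. In NPC it was 31.8% and 34.2%, in iPS cells 36.1% and 37.5%, and in iPS cells in 2i 40.2% and 42.4%. The iPS groups thus lay between the NPC and the ES libraries, with no overlap. Both genes encode the same mature c subunit with different import sequences, and Atp5g1, another gene for it, was not analysed here.

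Cox7a1, the form of complex IV subunit 7a known from heart and muscle, was low everywhere but rose in 2i in both lines. It stood at 9.15 and 7.90 CPM in ES cells, 13.5 and 15.8 CPM in ES cells in 2i, 7.22 and 6.30 CPM in iPS cells and 24.6 and 23.2 CPM in iPS cells in 2i. NPC had 0 and 6 counts of it. The rise was 0.73 ± 0.22 in ES cells (adjusted p = 0.0139) and 1.79 ± 0.25 in iPS cells (adjusted p = 5.14e-07), and the difference between the lines was called (1.06 ± 0.33, adjusted p = 0.0167). In 4 of the 22 alternative settings that difference was not called, and in 6 the rise in ES cells was not.

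Cyct, the testis form of cytochrome c, falls outside the naming rule and was read as the partner of Cycs. It stood at 4.66 and 4.74 CPM in ES cells and 26.4 and 18.9 CPM in 2i, and at 3.92 and 3.40 CPM in iPS cells and 11.1 and 10.7 CPM in 2i. No count fell in NPC, which with 3 counts as the limit allows up to 2.51 and 0.869 CPM. Cyct rose in 2i in ES cells (2.22 ± 0.24, adjusted p = 1.66e-08) and in iPS cells (1.51 ± 0.29, adjusted p = 7.10e-05), and the difference between those rises was not called (adjusted p = 0.199). Cycs itself had differences of 0.12 and 0.18 in 2i, with adjusted p of 0.546 and 0.275.

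**Figure D5:**
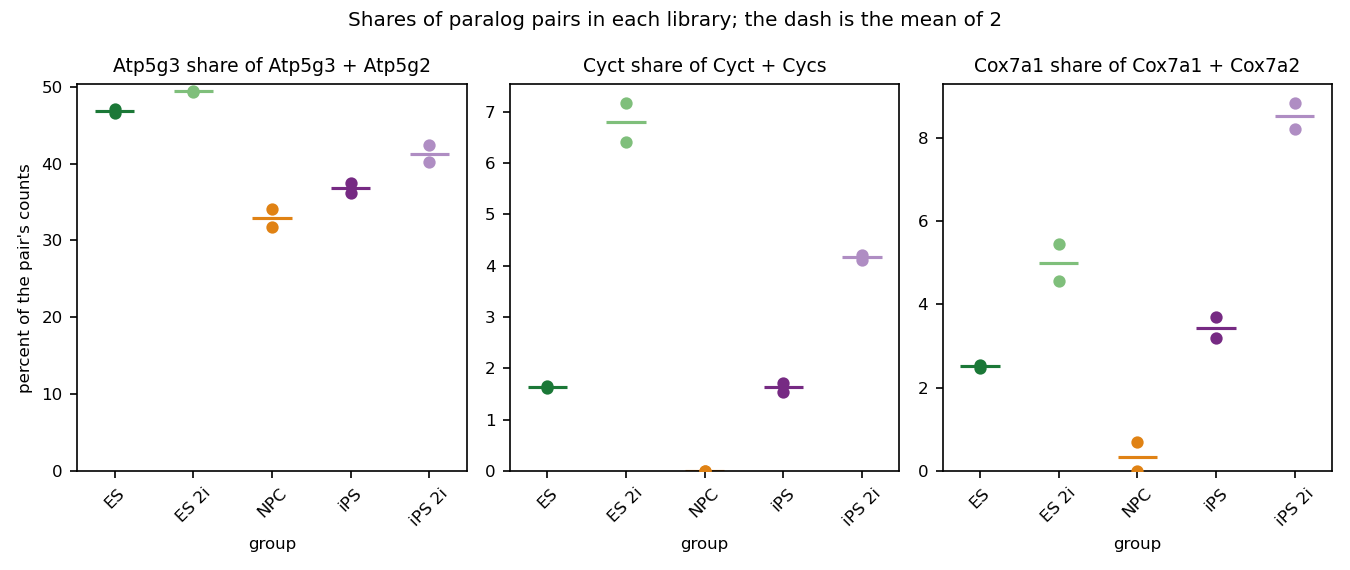
Percent of the counts of a paralog pair that fell on Atp5g3, Cyct and Cox7a1 in each library (points; dashes are means of 2), by group. The Atp5g3 share was 31.8% to 37.5% in NPC and iPS cells and 46.5% to 49.4% in ES cells of both media; the Cyct and Cox7a1 shares were higher in 2i than in the other medium in both lines.

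Ndufa4l2, a paralog of Ndufa4 known as a target of the hypoxia pathway, had 26 and 172 counts in the iPS libraries, or 5.36 and 29.3 CPM. In ES cells it had 22 and 6 counts, in ES cells in 2i 0 and 2, in NPC 0 and 1, and in iPS cells in 2i 4 and 19. Its iPS libraries lie far apart: the change from ES cells was 3.51 ± 0.50 (adjusted p = 5.83e-07), and without iPS replicate 2 the change was 1.83. Ndufa4l2 entered the test because of its level in these same iPS libraries, so its selection already favoured a rise. The p-value does not allow for that and cannot settle the difference by itself. Cox7a2l, an assembly factor of supercomplexes, was at 0.649 to 2.44 CPM on its model.

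Other genes of mitochondrial energy metabolism were read as lists. Transcripts of mitochondrial DNA were represented by mt-Nd4, Cox2 and Cytb, which encode subunits of complexes I, IV and III, and all 3 were higher in NPC than in ES cells. Cytb stood at 1351 and 849 CPM in ES cells and 4429 and 4682 CPM in NPC (2.05 ± 0.17), Cox2 rose by 1.69 ± 0.14 and mt-Nd4 by 0.85 ± 0.17. In iPS against ES cells Cox2 rose (0.99 ± 0.14), mt-Nd4 fell (−0.94 ± 0.17) and Cytb was at 1191 and 881 CPM. In 2i their changes had adjusted p of 0.208 to 0.585 in ES cells and 0.124 to 0.634 in iPS cells. The kit removed ribosomal RNA, and models of the mitochondrial chromosome took 7.26% to 19.0% of assigned counts.

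Of 17 tested factors that assemble the complexes, 1 rose and 9 fell in NPC against ES cells, 58.8% called against 61.0% of all models. Lrpprc, which stabilizes mitochondrial messenger RNA, fell from 183 and 150 CPM in ES cells to 38.5 and 45.5 CPM in NPC and stood at 46.8 and 52.9 CPM in iPS cells. In 2i it was at 134 and 152 CPM in ES and at 90.2 and 129 CPM in iPS cells, and its responses differed (1.37 ± 0.22, adjusted p = 1.49e-05). In iPS against ES cells 4 of the 17 rose and 5 fell, 52.9% as among all models. Of these, Cox11, a copper chaperone, fell by 1.75 ± 0.21 and Sdhaf1, needed for complex II, rose by 1.32 ± 0.14. In iPS cells in 2i, 5 of the 17 rose and 3 fell, 47.1% against 42.6% of all models and 57.4% of those with at least 3 log2 CPM.

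Of 12 tested regulators, Esrra was the one that rose in NPC and 5 fell, 50% called against 61.0% of all models. Esrra, an estrogen-related receptor that drives respiratory genes, was at 16.7 and 21.6 CPM in ES cells, 112 and 125 CPM in NPC and 129 and 105 CPM in iPS cells. In 2i it was at 25.6 and 33.5 CPM in ES cells and 71.5 and 60.1 CPM in iPS cells. It thus rose in ES cells (0.68 ± 0.17) and fell in iPS cells (−0.83 ± 0.16), and the difference was called (−1.51 ± 0.23). Tfb1m, a methyltransferase of mitochondrial ribosomal RNA, fell in NPC by 1.36 ± 0.21. In iPS against ES cells 2 of the 12 regulators rose and 6 fell, with a median of −0.45. This is 66.7% called, against 52.9% of all models and 71.0% of those with at least 3 log2 CPM. Esrrb, another estrogen-related receptor with a mean below 3 log2 CPM, had the largest fall there (−2.91).

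The pyruvate genes encode the mitochondrial pyruvate carrier, pyruvate dehydrogenase with its kinases and phosphatases, and lactate dehydrogenase. They gave 2 of 13 up and 8 down in NPC, and 3 up and 7 down in iPS against ES cells. This is 76.9% called in each, against 61.0% and 52.9% of all models. Calls are more frequent at higher levels: of models with at least 3 log2 CPM, 75.0% and 71.0% were called in these comparisons. Pdhb, a subunit of pyruvate dehydrogenase, was at 476 and 412 CPM in ES cells, 145 and 141 CPM in NPC, 169 and 186 CPM in iPS cells and 300.1 and 308 CPM in iPS cells in 2i. Pdk2, a kinase that inhibits the enzyme, was at 4.21 and 7.37 CPM in ES cells, 26.8 and 40.0 CPM in NPC, 23.5 and 20.8 CPM in iPS cells and 8.40 and 7.41 CPM in iPS cells in 2i. Pdp2, a phosphatase that activates it, rose in iPS cells in 2i by 1.41 ± 0.17. Of 9 carriers and related genes, Ucp2, an inner-membrane carrier of the uncoupling protein family, was at 45.9 and 66.1 CPM in ES cells and 291 and 258 CPM in iPS cells (2.33 ± 0.15). Usmg5, a small protein of ATP synthase, fell in iPS cells by 1.31 ± 0.14 and rose there in 2i by 0.63 ± 0.14. Of the 10 tested genes of the tricarboxylic acid cycle, 3 rose and 3 fell in both NPC and iPS cells against ES cells, 60% called against 61.0% and 52.9% of all models.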

How the data were processed

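RNA of 10 libraries (5 groups of 2) was analysed; 10 libraries of 5C, which measures chromatin contacts, were not used here. Per the labels, libraries were stranded and depleted of ribosomal RNA, and the submitters' processing notes name TopHat2 2.1.0, TopHat and HTSeq with mm9. Neither source states how HTSeq treated strand. The deposited counts are whole reads per UCSC transcript model. The authors' deposited table holds log2 values that equal log2(count + 1) plus a constant per library, giving all libraries the same upper quartile, so the test foreseen for linear values of that table was replaced by limma on the log2 values as an added alternative. Coordinates of members are those of that table.

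Counts were tested with edgeR 4.0.16 (R 4.3.3): TMM scaling, filterByExpr (cutoff 1.72 CPM, leaving 11031 of 55419 models), quasi-likelihood fit over all 10 libraries with group as the factor (5 residual degrees of freedom), Benjamini-Hochberg adjustment over all models tested and a threshold of 0.05. The 92 spike-in and 5 summary entries stayed out. A symbol with 2 models was read on the model with the most counts. The scripts were tested on simulated data. Alternatives used DESeq2 1.42.0, limma 3.58.1, other scalings and filters, a replicate block and left-out libraries. Per comparison and complex, the rule for named genes took up to 2 called members in each direction. These had the largest changes and a mean of at least 3 log2 CPM. The rule also took the Sdh genes, Cycs, Cyc1, core complex I subunits and paralogs in each comparison, and up to 3 genes from other lists. Not every gene so taken is described above. Cyc1 was not called in any comparison, with adjusted p from 0.0558 (ES cells in 2i against ES cells) to 0.943 (iPS cells against NPC). Atp5b, Atp5l where it is described by its libraries, and in single comparisons Ndufa2, Ndufc2, Cox6c, Ndufa6, Ndufs4, Ndufb11 and Cox7c were named after their values were seen. The members and lists were chosen with earlier results of these data known. Replicate correlations over models were 0.960 in NPC and 0.982 to 0.989 in the other groups.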

Additional observations from a re-analysis of the deposited data

Results flagged for a closer look

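In 20 members the response to 2i differed between iPS and ES cells by the test of the difference itself, edgeR's interaction term, with Benjamini-Hochberg adjustment over all models. Of all models tested 27.3% passed this test. At a level of at least 3 log2 CPM, 31.0% of members and 41.9% of all models passed it. The differences, as the log2 response of iPS cells minus that of ES cells, are given here by complex.

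In complex I they were 1.31 for Ndufs4, 0.93 for Ndufv3, 0.91 for Ndufa5, 0.89 for Ndufa1, 0.84 for Ndufb5, 0.61 for Ndufb3, 0.53 for Ndufa6 and −0.71 for Ndufc2. In complex II the difference was 1.08 for Sdha. In complex III it was 1.93 for Uqcrh, 0.88 for Uqcrb and 0.53 for Uqcrc2. In complex IV it was 1.41 for Cox7b, 1.13 for Ndufa4, 1.06 for Cox7a1, 1.03 for Cox6c, 0.69 for Cox7a2 and 0.53 for Cox7c. In complex V it was 0.81 for Atp5h and 0.76 for Atp5j2. Uqcrh, the hinge protein of complex III, was measured on a model with few counts and had an adjusted p of 0.0422. The call of Uqcrc2 was lost in 8 of 22 alternative settings (adjusted p up to 0.151), among them without any single ES or iPS library other than ES replicate 2 and ES in 2i replicate 1, and that of Cox7a1 in 4 (up to 0.193), among them without ES replicate 1 or iPS replicate 2. Summed fibroblast markers were lower in 2i in both lines, though not every marker fell. Of the 7 measured, 4 fell and 2 rose in 2i in ES cells, and 6 fell and 1 rose in iPS cells. The part of these markers in the differences was not tested.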

How the results depend on the processing

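Over 199 results of named genes and 22 alternatives, 4063 of 4343 values kept their side of the threshold, 199 lost the call and 79 gained one. A change of direction was counted only where the value was called in the main or the alternative setting. The 4063 therefore hold some uncalled values that changed sign, such as Ndufs1 in iPS cells against NPC (−0.789 to 0.68). By this count 2 values changed direction. Both were of Atp5l, whose ES libraries lie far apart: with single libraries left out it ran from −1.35 to 0.018 in NPC against ES cells and from −1.065 to 0.14 in ES cells in 2i, the highest value in both without ES replicate 1. The number of members called moved by more than 1.5 times in ES cells in 2i against ES cells, from 14 to 9 with no low-count filter, 9 with only the groups compared in the fit and 7 with limma on the deposited log2 values. In iPS against ES cells in 2i it moved from 24 to 13 with no filter and 15 with limma; the cause was not tested. With single libraries left out, the number ran from 25 to 39 in NPC against ES cells, 23 to 36 in iPS cells against NPC, 28 to 40 in iPS against ES cells, 7 to 14 in ES cells in 2i, 14 to 30 in iPS cells in 2i, 6 to 25 in iPS against ES cells in 2i and 14 to 25 for the interaction. Where this left 1 library in a group, it was assumed to vary like the others. Scaling to total counts moved the median of all models from −0.03 to −0.18 in iPS against ES cells, from 0.03 to 0.16 in iPS cells in 2i and from 0.01 to 0.11 for the interaction.

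The share of counts on the members depends on the denominator, and their sum after TMM scaling was higher, not lower, in iPS than in ES cells. Without the 10 most abundant models of each library it was 2.55%, 2.48%, 2.94%, 2.36% and 2.79% in ES cells, ES cells in 2i, NPC, iPS cells and iPS cells in 2i, and without models of the mitochondrial chromosome 2.34%, 2.28%, 2.67%, 2.12% and 2.55%; on both, NPC had the highest share.

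The labels do not say that libraries with the same replicate number belong together. Deviations of same-numbered libraries correlated at −0.08 to 0.07 over all models tested, which does not settle whether they shared a batch. With a replicate block the members called were 29 in NPC against ES cells, 32 in iPS cells against NPC, 36 in iPS against ES cells, 13 in ES cells in 2i, 25 in iPS cells in 2i, 22 in iPS against ES cells in 2i and 20 for the interaction. The test planned for a table of linear values was not run because the table holds log2 values. The 3 alternatives chosen after seeing the data were limma on those values, NPC replicate 1 and ES replicate 2 left out together, and the 10 named models of the mitochondrial chromosome left out.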
